A study of Mus musculus with 7 samples.

Results

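Transcripts of 10 S100 genes (S100a1, S100a4, S100a6, S100a8, S100a9, S100a10, S100a11, S100a13, S100a14 and S100a16) were followed in allografted mouse prostate tumours. The members were every probe of a mouse bead array annotated with 1 of these symbols, which gave 11 of the 45128 probes and 10 of the 19026 gene symbols on the array: S100a14 had 2 probes and each other gene had 1. Tumours of the NPK model were grown in NU/J athymic nude mice, which lack a functional thymus. The hosts were dosed once a day over 5 days with vehicle (3 tumours) or RAPPD (4 tumours), and tissue was taken on the fifth. RAPPD is an abbreviation that the labels do not explain; in published work on this model it is rapamycin, which inhibits mTOR, with an inhibitor of the kinase MEK. In that work, NPK tumours arise from prostate cells with a Cre driven by the Nkx3.1 locus, and both groups carry the same NPK genotype. The labels give no age of the mice and do not say whether the allografts within a group derive from different donors. Replicates carry no numbers in the labels, and each array is counted here as 1 tumour.

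S100 proteins are small calcium-binding proteins with a pair of EF-hand motifs that mostly act as dimers. S100a8 and S100a9 pair to form calprotectin, which fills the cytosol of neutrophils, binds zinc and manganese, and after release signals through Tlr4 and the receptor Ager (RAGE). Other members are made by epithelial cells, by fibroblasts or by many cell types, and tie calcium to the cytoskeleton, to annexins and to membranes. The members were therefore grouped by the cells best known to make them: S100a8 and S100a9 as neutrophil members, S100a14 and S100a16 as epithelial, S100a4 and S100a6 as stromal, S100a10, S100a11 and S100a13 as broadly expressed, and S100a1 as striated muscle. These are background roles and leave overlap, since macrophages also make S100a4 and several epithelia make S100a6.

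All 10 genes lie on chromosome 3 in the RefSeq annotation of GRCm38.p6. From S100a1 to S100a9 the 12 protein-coding genes are all S100a genes and include 8 of the 10 members. S100a8 and S100a9 have 0 coding genes between them and are read from opposite strands. The 250 bases before the annotated start, from RefSeq (GRCm38.p6), are shown for the neutrophil members, which moved together, and for the stromal members S100a4 and S100a6, which did not pass the test. Capitals mark matches to TATAAA, the core promoter box, to TTNNGNAA, a form of the C/EBP motif, or to TGANTCA, the site of AP-1, searched on both strands; no matches overlapped in the stretches shown.
S100a8, chr3:90668821-90669070, plus strand: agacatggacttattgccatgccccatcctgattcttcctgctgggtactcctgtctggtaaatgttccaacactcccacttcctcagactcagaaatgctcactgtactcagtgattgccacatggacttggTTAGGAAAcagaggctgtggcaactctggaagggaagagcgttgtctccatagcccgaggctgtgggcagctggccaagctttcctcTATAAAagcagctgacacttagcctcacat
S100a9, chr3:90695722-90695971, minus strand: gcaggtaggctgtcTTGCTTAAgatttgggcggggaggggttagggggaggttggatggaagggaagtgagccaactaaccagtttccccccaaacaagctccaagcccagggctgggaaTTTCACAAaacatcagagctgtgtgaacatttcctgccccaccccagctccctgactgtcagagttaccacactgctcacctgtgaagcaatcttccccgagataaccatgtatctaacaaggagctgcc
S100a4, chr3:90603520-90603769, plus strand: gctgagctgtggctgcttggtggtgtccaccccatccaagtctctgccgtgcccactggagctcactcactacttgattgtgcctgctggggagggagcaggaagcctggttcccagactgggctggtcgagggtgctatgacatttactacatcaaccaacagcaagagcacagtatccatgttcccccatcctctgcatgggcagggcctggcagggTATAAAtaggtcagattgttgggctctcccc
S100a6, chr3:90612644-90612893, plus strand: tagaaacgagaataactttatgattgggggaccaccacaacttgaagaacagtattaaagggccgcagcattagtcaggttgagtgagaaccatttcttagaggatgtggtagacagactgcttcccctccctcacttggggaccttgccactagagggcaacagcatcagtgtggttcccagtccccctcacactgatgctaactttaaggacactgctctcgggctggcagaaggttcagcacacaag
The promoter table held 8 of the 10 genes with 9 promoters (S100a10 and S100a14 were not matched), and the search ran over 300 bases, 250 before and 50 after the start. C/EBP matches were found for S100a8 and S100a9 among the 8 genes, where 40.7% of all 32851 promoters hold one. TATAAA was found for S100a8, S100a9 and S100a4, against 13.6% of all promoters; the S100a9 match begins at the annotated start itself and so lies outside the stretch shown. AP-1 matches were found for S100a16 and S100a11, against 7.81% of all promoters. A match describes these letters only.

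Levels are log2 intensities after background correction and quantile normalisation, and a probe was called above background on an array when its intensity passed the upper 0.05 tail of that array's background. Between 20323 and 21330 probes were above background per array, and precision is limited by how few tumours there were. Probes above background on at least 3 arrays were tested, which kept 21249 probes and 10 of the 11 S100 probes. Pearson's r between arrays across these probes, which are not independent replicates, was at least 0.958 within a group and 0.912 to 0.950 between groups. The chip numbers in the labels place vehicle 1 and vehicle 2 alone on a chip each, and vehicle 3 on another chip with all 4 RAPPD arrays. Vehicle 2 stood apart in skeletal muscle genes (mean log2 level 12.3 over 7 genes, against 4.79 to 5.80 on the other arrays). Of 20 epithelial markers on the array, 9 were not past the filter, Epcam among them, and of 5 prostate luminal markers Pbsn, Hoxb13, Tmprss2 and Msmb were above background on 0 arrays. The tissue name therefore rests on the labels, although the simple epithelial keratin Krt8 was high in every tumour (vehicle mean 14.14 ± 0.16, SD, n = 3).

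Of the 10 S100 probes tested, 2 were called higher in RAPPD tumours (S100a8 and S100a9) and 2 lower (S100a10 and S100a16), while 6 did not pass an adjusted p of 0.05 (limma, Benjamini-Hochberg adjustment over all 21249 probes). Over all probes, 10.9% were called higher and 11% lower, and 22% in either direction. The median difference of the 10 probes was -0.22, against 0.024 for all probes. Vehicle and RAPPD arrays were fully separated for 5 of the 10 probes, against 32.6% of all probes. A second fit had chip as a fixed block and so compared RAPPD only with vehicle 3, the vehicle array on the same chip. Its p-values rest on the spread among the RAPPD arrays and hold no spread among vehicle tumours, so a call there is no test against that spread. In this blocked fit 0 of the 10 were called, against 7.56% of all probes (3.09% higher and 4.48% lower).

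**Figure D1:**
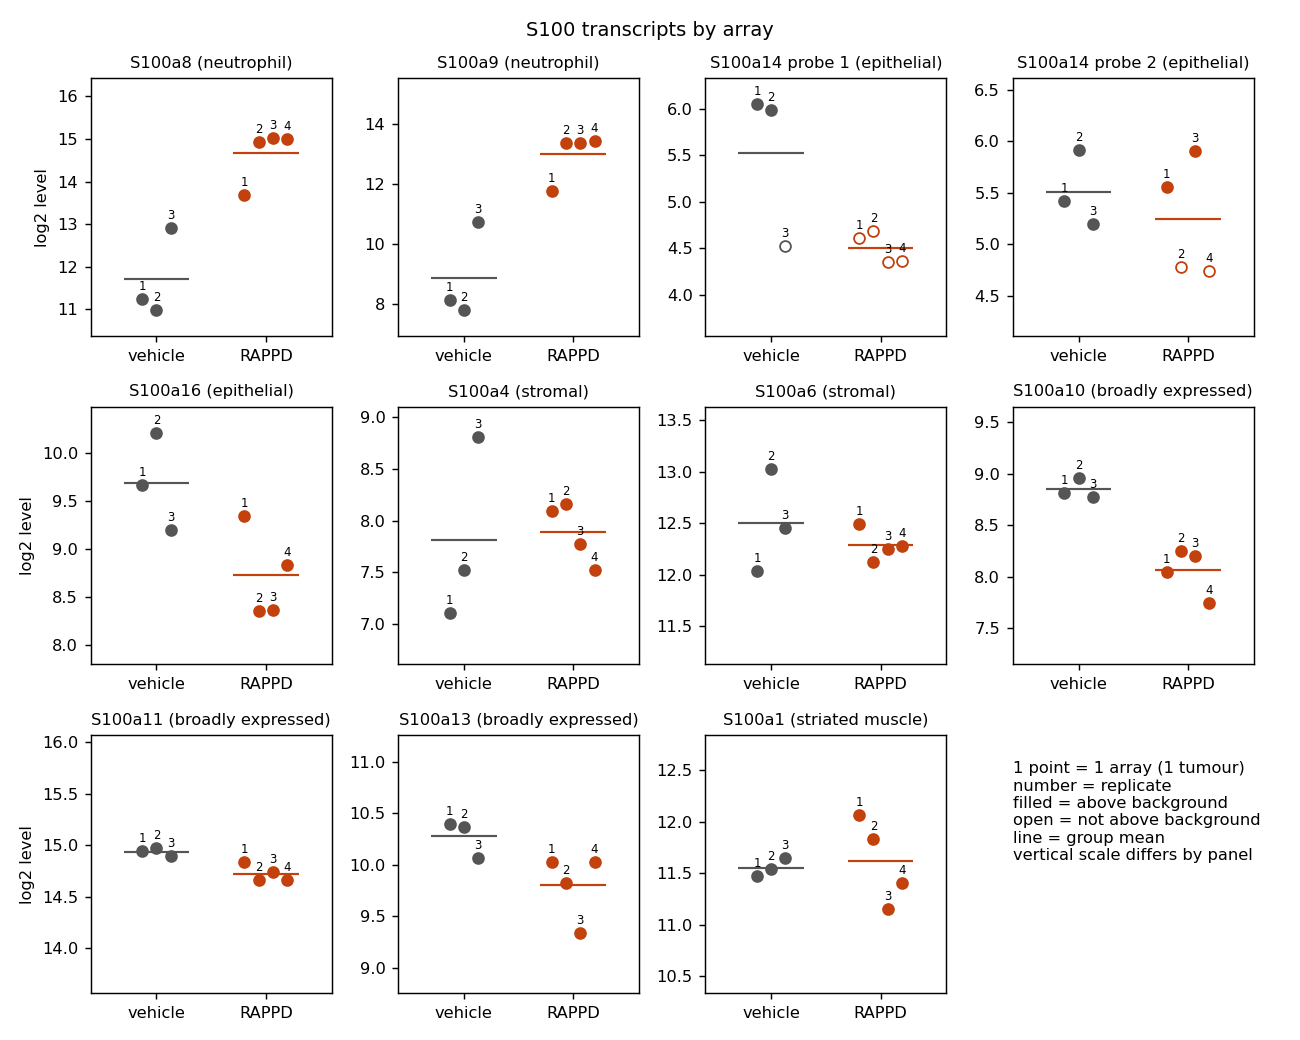
Log2 level (vertical axis, scale differing by panel) of each of the 11 S100 probes on each array, with vehicle in grey and RAPPD in orange; points are single tumours numbered by replicate, open points were not above background and lines are group means. All RAPPD points of S100a8 and S100a9 lie above all vehicle points, with vehicle 3 as the highest vehicle array and RAPPD 1 as the lowest RAPPD array.

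The neutrophil members rose. S100a8 measured 11.25, 10.98 and 12.90 on vehicle 1 to 3 and 13.70, 14.93, 15.03 and 15.00 on RAPPD 1 to 4. In deposited intensity this was 2018 to 7530 in vehicle tumours and 13210 to 34026 in RAPPD tumours, on arrays whose brightest probes reached 57381 to 78609. Every RAPPD tumour was above every vehicle tumour, with vehicle 3 and RAPPD 1 nearest each other. The rise was 2.95 ± 0.48 on the log2 scale (SE, n = 4 and 3; 7.75-fold; limma adjusted p = 0.00303).

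S100a9 measured 8.13, 7.79 and 10.71 on vehicle 1 to 3. On RAPPD 1 to 4 it measured 11.76, 13.35, 13.36 and 13.43. The groups again did not overlap, and the same pair of arrays lay between the rest. The rise was 4.10 ± 0.68 (SE; 17.2-fold; limma adjusted p = 0.0032). In the blocked fit the differences were smaller and lost their calls: 1.77 ± 0.53 for S100a8 (adjusted p = 0.0919) and 2.27 ± 0.64 for S100a9 (adjusted p = 0.0814, limma). Across all 19 alternatives the rise was 1.77 to 3.55 for S100a8 and 2.27 to 5.02 for S100a9, called in 18 of 19 for each.

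Other neutrophil markers rose too. Of 18 measured genes of a neutrophil list that leaves out S100a8 and S100a9, 14 rose and 0 fell, with a median difference of 2.65 against -0.014 for all 11085 genes, of which 10.6% were called higher and 12.7% lower. The list mean was 6.45 to 7.83 in vehicle tumours and 8.52 to 10.19 in RAPPD tumours, with vehicle 3 the highest of its group and RAPPD 1 (8.52) the lowest of its own. In the blocked fit 2 of the 18 were called and the median was 2.04. The lectin Clec4e rose by 3.52 ± 0.36 (adjusted p = 2.55e-04, limma), with its other probe at 3.89, and the secreted protein gene Retnlg rose by 5.03 ± 0.60 (adjusted p = 5.91e-04, limma). Against vehicle 3 alone, in the blocked fit, they were higher by 2.74 and 3.85. Granule genes of maturing neutrophils, named after their values were seen, were mixed. Ngp, above background on 0 vehicle and 4 RAPPD arrays, was at least 4.79-fold higher (adjusted p = 0.00515) and Lcn2 rose by 2.27 ± 0.46 (adjusted p = 0.00782, limma). Camp (1.80 ± 0.67, adjusted p = 0.085), Mmp9 (0.76 ± 0.65, adjusted p = 0.439) and the elastase gene Elane (-0.012 ± 0.21, adjusted p = 0.976, limma) did not pass the test. Elane lay close to background, above it on 2 vehicle and 1 RAPPD arrays, so its small difference says little. Mmp8, Ltf and Mpo were not past the filter. In bulk tumours, more neutrophils and more RNA per neutrophil cannot be told apart, and which cells carried the rises was not tested.

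Red cell genes were also higher in RAPPD tumours, but their order among the vehicle arrays differed from that of the neutrophil members. All 5 measured erythroid genes rose, with a median of 2.74, and their mean was 9.71 to 10.6 in vehicle tumours and 11.8 to 13.5 in RAPPD tumours. In the blocked fit 3 of the 5 were called, all globin genes. The globin genes Hba-a1 and Hbb-bt rose by 2.74 ± 0.35 and 2.59 ± 0.32 (adjusted p = 8.56e-04 and 6.82e-04, limma); other Hbb-bt probes differed by 3.05 to 3.50, and beta globin genes are near-identical, so their probes cannot be separated with certainty. On RAPPD 1, which had the lowest S100a8 and S100a9 of its group, the erythroid mean was also the lowest of its group (11.8). Vehicle 3 went the other way: it had the highest S100a8 and S100a9 of its group and the lowest erythroid mean (9.71). The part of blood in the S100a8 and S100a9 differences was not tested.

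**Figure D2:**
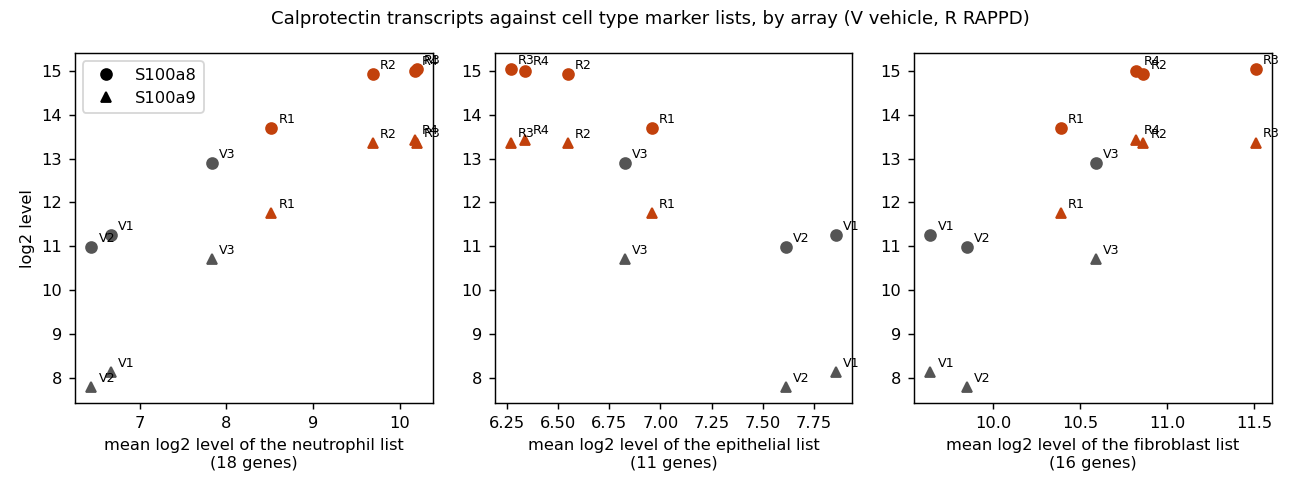
Log2 level of S100a8 (circles) and S100a9 (triangles) on each array against the mean log2 level of the neutrophil (18 genes), epithelial (11 genes) and fibroblast (16 genes) lists; V is vehicle and R is RAPPD. On the neutrophil axis and on both vertical scales V2 and V1 lie lowest, then V3, then R1, with R2, R3 and R4 highest; on the epithelial axis V1 and V2 lie highest and R2, R3 and R4 lowest.

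The epithelial members were lower or near background. S100a16, a calcium-binding protein of epithelia and fat, measured 9.67, 10.22 and 9.20 on vehicle 1 to 3 and 9.35, 8.35, 8.37 and 8.83 on RAPPD 1 to 4. RAPPD 1 lay above vehicle 3, so the groups overlapped. The difference was -0.97 ± 0.31 (1.96-fold lower; limma adjusted p = 0.0496), at the edge of the threshold. The direction held in all 19 alternatives (-1.22 to -0.48) and the call in 7 of them. It was lost without vehicle 1 (-0.98), vehicle 2 (-0.71), RAPPD 2 (-0.85), RAPPD 3 (-0.85) or RAPPD 4 (-1.01), with adjusted p of 0.0837 to 0.155, and in the blocked fit (-0.48, adjusted p = 0.493, limma).

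S100a14, a gene of epithelial linings, had 2 probes that both lay close to background. The tested probe (ILMN_2779858) measured 5.42, 5.92 and 5.20 on vehicle 1 to 3. It measured 5.56, 4.78, 5.91 and 4.75 on RAPPD 1 to 4, where RAPPD 2 and RAPPD 4 were not above background. The groups overlapped throughout (-0.26 ± 0.32, limma adjusted p = 0.593, 95% interval -0.97 to 0.45). The other probe (ILMN_2777308) was above background on vehicle 1 (6.05) and vehicle 2 (5.99) but not on vehicle 3 (4.53), and on 0 of the 4 RAPPD arrays (4.36 to 4.69). With the RAPPD arrays raised to the detection limit and vehicle 3 kept at its measured level, the RAPPD mean was 1.44-fold lower. Vehicle 3 lay inside the RAPPD range, so this difference rests on vehicle 1 and vehicle 2. The probe did not enter the test. In a fit of all probes its adjusted p was 0.144 (limma).

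Of 11 measured epithelial markers, 0 rose and 3 fell, with a median of -0.69. The list mean was 6.83 to 7.86 in vehicle tumours, lowest on vehicle 3, and 6.27 to 6.96 in RAPPD tumours. Krt8 fell by 2.16 ± 0.28 (adjusted p = 9.80e-04) and its partner keratin gene Krt18 fell by 2.83 ± 0.47 (adjusted p = 0.00316, limma). The call of Krt18 was lost in the blocked fit (-1.89, adjusted p = 0.114). The third, named after its value was seen, was the tight junction gene Cldn7 (-0.77 ± 0.24, adjusted p = 0.0488, limma), which lost its call in the blocked fit (adjusted p = 0.276) and with no filter (adjusted p = 0.0904, limma). The count called lower was 1 in the blocked fit and 6 with array quality weights. The part of the epithelial share in the S100a16 difference was not tested.

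The stromal members did not pass the test. S100a4, known as fibroblast-specific protein and a partner of non-muscle myosin, measured 7.10, 7.52 and 8.81 on vehicle 1 to 3. It measured 8.09, 8.16, 7.77 and 7.52 on RAPPD 1 to 4. The vehicle tumours spanned the whole RAPPD range, with vehicle 3 above every other tumour. The difference was 0.074 ± 0.37 (adjusted p = 0.910, 95% interval -0.76 to 0.90). Its sign changed with single arrays: it was 0.57 without vehicle 3 (adjusted p = 0.121), -0.28 without vehicle 1 (adjusted p = 0.644) and -0.93 ± 0.30 in the blocked fit (adjusted p = 0.111, limma).

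S100a6 (calcyclin), which binds annexins and the ubiquitin ligase partner Cacybp, measured 12.04, 13.02 and 12.45 on vehicle 1 to 3. It measured 12.49, 12.12, 12.24 and 12.28 on RAPPD 1 to 4. Vehicle 2 was the highest array and vehicle 1 the lowest, so the RAPPD tumours lay inside the vehicle range. The difference was -0.22 ± 0.24 (limma adjusted p = 0.543, 95% interval -0.75 to 0.31), and 0.040 without vehicle 2.

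Fibroblast genes gave a mixed background for these members. Of 16 measured, 4 rose and 1 fell, with a median of 0.85. The fall, named after its value was seen, was Pdgfrb (-1.11 ± 0.24, adjusted p = 0.0113, limma), at -1.25 in the blocked fit. Pdgfra, named in the same way, was among the rises (1.28 ± 0.39, adjusted p = 0.0453, limma), with its other probe at 0.087. The list mean was 9.64 to 10.6 in vehicle tumours and 10.4 to 11.5 in RAPPD tumours. The small proteoglycan gene Ogn rose by 2.87 ± 0.41 (adjusted p = 0.00157) and the collagen cross-linking enzyme gene Lox rose by 2.53 ± 0.44 (adjusted p = 0.00401, limma), and the call of Ogn was lost in the blocked fit (2.13, adjusted p = 0.0744). The number called higher was 7 without vehicle 3 and 9 without RAPPD 1 or with array quality weights. In the blocked fit, against vehicle 3 alone, the list median was 0.19 and Lox stood at 2.90. Picked out once the values were known, the matrix genes Lum and Dpt and the protease gene Fap stood at -1.45, -2.05 and -1.36 there. Over all genes, 10.6% were called higher and 12.7% lower. Of 11 macrophage markers, 1 rose (Mertk, by 0.96 ± 0.24, adjusted p = 0.0215) and 1 fell (Mrc1, -1.22 ± 0.30, adjusted p = 0.0181, limma). Both calls were lost in the blocked fit, that of Mrc1 also without vehicle 3, and that of Mertk also without vehicle 1, vehicle 2, RAPPD 2 or RAPPD 3. In the blocked fit Adgre1 stood at -1.75 and Ms4a7 at -1.16 against vehicle 3, both named after their values were seen. The macrophage list mean was highest on vehicle 3 (9.45, against 8.62 to 9.20 on the other arrays), the array with the highest S100a4. It was lowest on RAPPD 2 (8.62), where S100a4 (8.16) was the highest of the RAPPD arrays.

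**Figure D3:**
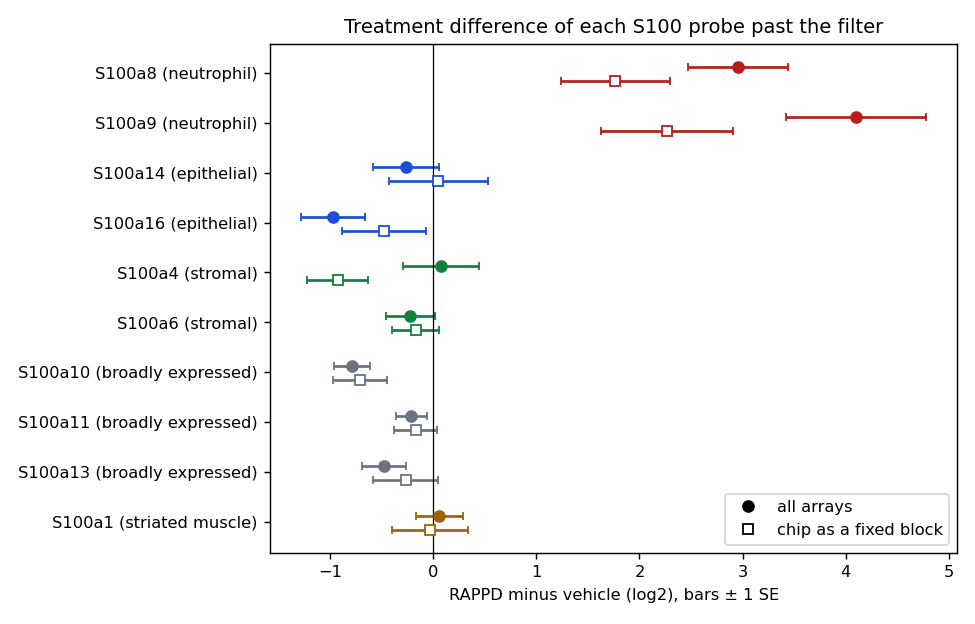
RAPPD minus vehicle difference on the log2 scale (horizontal axis) with bars of 1 SE for the 10 S100 probes past the filter, coloured by role; filled circles use all arrays and open squares are the blocked fit. S100a8 and S100a9 lie at 2.95 and 4.10 with all arrays and at 1.77 and 2.27 with the block, and the other probes lie between -0.97 and 0.074 with all arrays.

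The broadly expressed members were lower or did not pass the test. S100a10 (p11), the partner of annexin A2 that has lost calcium binding, measured 8.82, 8.96 and 8.77 on vehicle 1 to 3. It measured 8.05, 8.25, 8.21 and 7.75 on RAPPD 1 to 4. Every RAPPD tumour was below every vehicle tumour. S100a10 fell by 0.79 ± 0.18 (1.72-fold; limma adjusted p = 0.0131). The call held in 18 of 19 alternatives and was lost in the blocked fit at a similar size (-0.71 ± 0.26, limma adjusted p = 0.145).

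S100a13, which assists the export of Fgf1 from cells, measured 10.40, 10.36 and 10.07 on vehicle 1 to 3. It measured 10.02, 9.82, 9.33 and 10.03 on RAPPD 1 to 4. The groups did not overlap but vehicle 3 lay close to RAPPD 1 and RAPPD 4, and the test was not passed (-0.48 ± 0.21, limma adjusted p = 0.139). S100a11, a partner of annexin A1, measured 14.95, 14.97 and 14.89 in vehicle tumours and 14.84, 14.67, 14.74 and 14.66 in RAPPD tumours. These groups did not overlap either, at a difference of -0.21 ± 0.15 that did not pass the test (limma adjusted p = 0.342). RefSeq lists a pseudogene of S100a11, and whether its probe also binds that transcript was not tested.

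S100a1, the member of heart and skeletal muscle, measured 11.47, 11.54 and 11.65 on vehicle 1 to 3 and 12.07, 11.83, 11.15 and 11.41 on RAPPD 1 to 4. The RAPPD tumours spanned the vehicle range on both sides (0.062 ± 0.23, limma adjusted p = 0.877, 95% interval -0.46 to 0.58). Vehicle 2, with its high skeletal muscle genes, lay between the other vehicle tumours for S100a1. The skeletal muscle genes with the smallest p, Myl1 and Tnni2, did not pass the test (-3.54 ± 1.80 and -2.81 ± 1.46, adjusted p = 0.192 and 0.200, limma), and 0 of 7 measured were called. These differences rest on vehicle 2: that of Tnni2 was -0.47 without it. Myl1 was above background on 1 RAPPD array only.

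The neutrophil members were set against an epithelial and a stromal member by the ratio of their probes within each array, which shows unequal change and not levels. S100a16, the epithelial member above background on every array, was not among the pairs. The log2 ratio of S100a8 to S100a14 was 5.83, 5.06 and 7.70 on vehicle 1 to 3, 8.13 on RAPPD 1 and 9.13 on RAPPD 3. On RAPPD 2 and RAPPD 4 the S100a14 probe was not above background, and with S100a14 raised to the detection floor there the ratio was at least 9.93 and 10.02. That of S100a9 to S100a4 was 1.03, 0.26 and 1.90 on vehicle 1 to 3 and 3.67, 5.19, 5.59 and 5.91 on RAPPD 1 to 4. In all 4 pairs compared, every RAPPD array was above every vehicle array. With that floor the ratio was higher by at least 3.11 for S100a8 against S100a14 and by at least 4.25 for S100a9 against S100a14 (3.22 and 4.36 with the measured values). It rose by 2.88 for S100a8 against S100a4 and 4.03 for S100a9 against S100a4. Each gave, with and without the floor, p = 0.0286 in a two-sided exact permutation test over the 35 assignments of the 7 arrays, the smallest p this design allows, and 0.0286 after Benjamini-Hochberg adjustment over the 4 pairs. On the shared chip alone, the RAPPD mean exceeded vehicle 3 by at least 1.602 and 2.10 against S100a14 and by 2.69 and 3.19 against S100a4, where 1 array against 4 cannot reach the threshold.

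**Figure D4:**
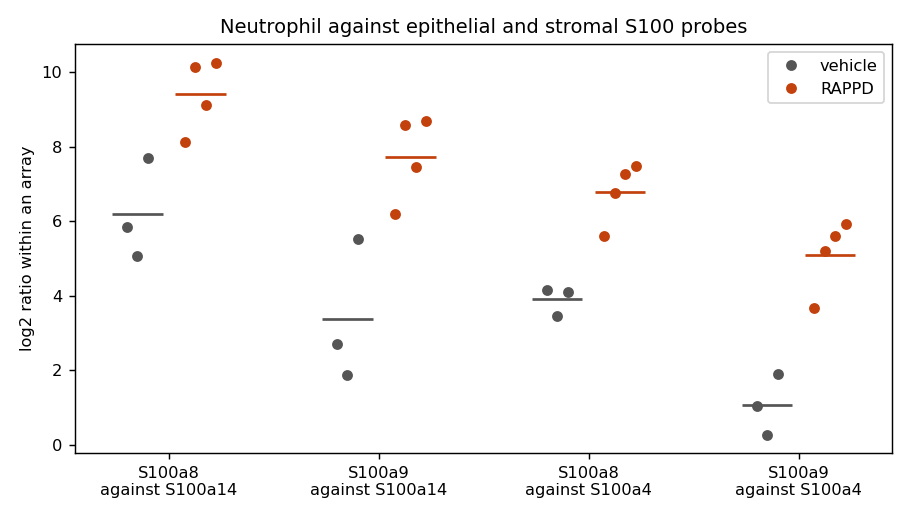
Log2 ratio within an array (vertical axis) of S100a8 or S100a9 to S100a14 or S100a4, by group; points are single arrays at their measured values and lines are group means; in the S100a14 pairs RAPPD 2 and RAPPD 4 have only a bound, since S100a14 was not above background. The RAPPD arrays lie above the vehicle arrays in all 4 pairs, also with the floor.

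Genes with the most similar profile were sought among 2870 non-member genes, by the root mean square difference of log2 levels over the 7 arrays after each gene was centred on its own mean. This is a description, and the arrays share the treatment split. Nearest to S100a8 were Cytip (0.23), Il1b (0.31), Csf3r (0.32) and Cd300lf (0.39), where the number is that difference in log2 units. Csf3r, the receptor for granulocyte colony-stimulating factor, and Il1b, a cytokine, had group differences of 2.87 and 3.35. Nearest to S100a9 were Stfa1 (0.30), Stfa2 (0.30), Cstdc4 (0.35) and Hdc (0.41). Stfa1 and Stfa2 belong to a stefin family of near-identical genes, so their probes may not separate them. S100a8 and S100a9 lay 0.65 apart, and 85 of the 2870 genes were closer to S100a8 and 12 closer to S100a9 than this.

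S100a4, S100a6 and S100a14 were the other members searched, and none had a called difference. Genes picked for likeness to those profiles lack a called difference largely through that choice, which makes it no separate result. Nearest to S100a4 were Tmem241, Casp1, Gstm4 and Cyb5a (0.26 to 0.29, adjusted p 0.524 to 0.987, limma). Nearest to S100a6 were Gdf10, Gnal, Dlx1as and Ankrd6 (0.27 to 0.28). Nearest to S100a14 were Htt, Epgn, Cd163 and Ankrd6 (0.25 to 0.31). Adjusted p was 0.149 to 0.546 (limma) among these genes. The genes nearest to S100a6 lay close to background, with group means of 4.67 to 5.40, while S100a6 had group means of 12.50 and 12.28. The lowest level of a probe above background was 4.92 to 5.01 across arrays. Cd163 (4.88 in RAPPD tumours) lay there too.

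Genes of receptors that bind S100 proteins were measured alongside. Of 5 measured receptor genes, 3 rose and 0 fell, with a median of 0.63. Ager (RAGE), a receptor for calprotectin and other S100 proteins, rose by 1.51 ± 0.24 (adjusted p = 0.00249), with its other probe at 1.54. Bsg (basigin), which binds S100a9, rose by 0.81 ± 0.23 (adjusted p = 0.0319, limma), with its other probe at 1.11. The third, named after its value was seen, was Tlr4 (0.63 ± 0.18, adjusted p = 0.037). In the blocked fit 0 of the 5 were called (Ager 1.46, limma adjusted p = 0.0675), and Ager alone was called without vehicle 1, vehicle 2, RAPPD 2 or RAPPD 3.

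Of 9 measured binding partners, 0 rose and 1 fell, where 12.7% of all genes were called lower, with a median of -0.36. The fall was in Ahnak, a large scaffold that binds the S100a10 and annexin A2 complex (-0.62 ± 0.19, adjusted p = 0.044, limma), while its other probes ranged from -0.43 to 1.09. Its call was lost in 11 of 19 alternatives, among them those without vehicle 1, vehicle 2, vehicle 3, RAPPD 3 or RAPPD 4. Anxa6 did not pass the test (-0.36 ± 0.18, adjusted p = 0.177), and Anxa2, the partner of S100a10, named after its value was seen, stood at 0.12 ± 0.17 (limma adjusted p = 0.654), with its other probe at 0.82. Fgf1, named in the same way, stood at -0.67 ± 0.40 (limma adjusted p = 0.259), with its other probe at 0.45. Against vehicle 3 alone, in the blocked fit, Fgf1 stood at -1.84.

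Of 5 measured subunits of the phagocyte NADPH oxidase, an enzyme complex to which calprotectin delivers fatty acids, 2 rose and 0 fell, with a median of 0.14. Ncf1 (0.080), Rac2 (0.14) and Cybb (0.11, close to background), named after their values were seen, did not pass the test. Cyba rose by 0.87 ± 0.24 (adjusted p = 0.0304) and Ncf4 rose by 1.05 ± 0.31 (adjusted p = 0.0384, limma), and both calls were lost in the blocked fit (0.81 and 0.73). The count was 0 without vehicle 1, RAPPD 3 or RAPPD 4, and 1 without vehicle 2, vehicle 3 or RAPPD 2. Of 4 measured genes of the plasminogen system, which S100a10 helps to activate at the cell surface, 0 rose and 1 fell: Plat, the tissue plasminogen activator (-0.93 ± 0.28, adjusted p = 0.0431, limma), called in 7 of 19 alternatives and, of those leaving out 1 array, only without RAPPD 3. Serpinb2 stood at 3.33 ± 1.18 (adjusted p = 0.0739, limma).

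Of 6 measured transcription factors known to act on the calprotectin genes in myeloid cells, 3 rose and 0 fell, with a median of 0.68. Cebpb rose by 1.15 ± 0.21 (adjusted p = 0.005) and Stat3 rose by 0.84 ± 0.19 (adjusted p = 0.0128, limma). In the blocked fit 0 of the 6 were called (0.90 and 1.05 for Cebpb and Stat3). The third, named after its value was seen, was Cebpa (1.44 ± 0.36, adjusted p = 0.0204, limma). These factors are also made by tumour and stromal cells, and which cells carried the rise was not tested.

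Other S100 genes gave little signal. Of 7 further S100 symbols on the array, S100a3, S100a5, S100a7a, S100b and S100g were not past the filter. S100z and S100pbp, which encodes an S100P-binding protein and is no S100 protein itself, did not pass the test (-0.14 ± 0.23 and 0.32 ± 0.19, adjusted p = 0.701 and 0.252, limma). Among the remaining marker lists, 2 of 7 endothelial genes fell and 0 rose, with a median of -0.043. Tek (-0.84 ± 0.17, adjusted p = 0.0077) and Vwf (-0.79 ± 0.19, adjusted p = 0.0177, limma) fell, and their calls were lost in the blocked fit, that of Vwf also without vehicle 2 or RAPPD 2. The rest, named after their values were seen, did not pass the test: Cdh5 (0.44), Kdr (0.50, near background), Pecam1 (0.12), Emcn (-0.16) and Egfl7 (-0.043). Of 6 smooth muscle genes 1 rose: Myh11, above background on 0 of the 3 vehicle arrays, was at least 2.09-fold higher (adjusted p = 0.0239, limma), called in 11 of 19 alternatives and lost without vehicle 1, vehicle 2 or RAPPD 4, and Tagln did not pass the test (1.49 ± 0.51, adjusted p = 0.0664). Of 2 adipocyte genes 0 were called (Adipoq -1.56 ± 0.60, adjusted p = 0.0957, and Lep -0.039 ± 0.17, adjusted p = 0.898, limma), as was the case for Fkbp5, the 1 luminal gene past the filter (0.31 ± 0.27, adjusted p = 0.450, limma).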

How the data were processed

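RNA of 7 tumours was hybridised to Illumina mouse bead arrays. BeadStudio and lumi were used by the authors, per the submitters' processing notes, with role, version and genome build not given in the sources used here. The deposited table holds 1 intensity per probe and array on a linear scale, with 28.8% to 30.3% below 0 and no detection p-values or control probes. The planned limma neqc needs those, so normexp was run with background mean 0 and an SD (8.41 to 9.35) from each array's negative intensities; an offset of 16, quantile normalisation and log2 followed. The submitters' deposited log2-like processed values (array medians 8.021 to 8.025, transform and centring unknown) served as an alternative only.

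RAPPD was compared with vehicle by limma 3.58.1 (lmFit, eBayes, R 4.3.3), two-sided, on every probe above background on at least 3 arrays, with Benjamini-Hochberg adjustment over all of them and a threshold of 0.05. A gene in a list is its brightest probe. Counts called in every list stand against 10.6% of all 11085 genes called higher and 12.7% lower, so 1 call in a short list is no result about that list. Chip was fitted as a fixed block and as a random block (statmod 1.5.0, correlation 0.311). Array position A holds every vehicle sample and no RAPPD sample, so position and treatment cannot be told apart. Symbols came from the platform annotation (34776 probes with 1 symbol, 18 with several, 10334 unnamed here). A bound uses the lowest level of a probe above background per array. Tests were checked on simulated data.

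The named genes are every S100 probe, the 2 genes with the smallest p in each list and the 4 nearest profiles (SD at least 0.5) of 5 members; other genes are said to be named after their values were seen. The members and lists were chosen with earlier results of these data known. Replicates carry no numbers in the labels, and each array is counted as 1 tumour. The p-values reflect how far these 7 samples scatter, or in the blocked fit how far the 4 RAPPD samples do. That scatter may be technical.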

Additional observations from a re-analysis of the deposited data

Results flagged for a closer look

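In 66 named probes and ratios, the 4 RAPPD arrays were searched for an array far from the other 3 (Dixon's test of the gap to the nearest array), which chance gives in about 1 of 20 groups; 9 were found. RAPPD 1 was low for S100a8 (13.70, against 14.93 to 15.03) and S100a9 (11.76, against 13.35 to 13.43). Without RAPPD 1 the rises were 3.28 and 4.50. RAPPD 1 was also low for the globin genes Hbb-bt (14.66, against 15.63 to 15.70) and Hba-a1 (14.56, against 15.67 to 15.73), and high for Fkbp5 (12.66, against 11.67 to 11.83). RAPPD 4 was low for Ogn (9.14, against 10.50 to 10.66) and high for Myl1 (5.58, against 4.44 to 4.57). RAPPD 3 was low for Gstm4 (5.47, against 6.10 to 6.22) and high for Cyb5a (12.56, against 12.28 to 12.32).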

How the results depend on the processing

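The rises of S100a8 and S100a9 kept their direction in all 19 alternatives and were called in all but the fit with chip as a fixed block, where 0 S100 probes were called higher and 0 lower. The count called lower was 1 (S100a10) with no background correction, median scaling, the submitters' values, no filter, 1 probe per gene or chip as a random block, and 1 to 2 leaving out single arrays, where 2 were always called higher. Over all probes, 2325 were higher and 2347 lower, against 656 and 951 with chip as a fixed block and 1214 and 1457 with 1 probe per gene. Leaving out single arrays gave 1443 to 2489 higher and 1440 to 2360 lower, lowest without vehicle 1. The fixed block leaves 1 vehicle array, and the cause of its smaller differences was not tested.

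Raising S100a14 to the detection floor, added after seeing the data, gave at least 3.11 and 4.25. Measured ratio differences with chip 3 alone were 1.71 (S100a8) and 2.22 (S100a9) against S100a14, and 2.69 and 3.19 against S100a4 (exact p = 0.200 each, the smallest possible). Leaving out single arrays gave 2.65 to 3.97, 3.62 to 5.44, 2.64 to 3.28 and 3.63 to 4.50, where fewer arrays cannot reach the threshold. Signs turned for probes that were never called. S100a4 was at -0.0046 (submitters' values), -0.93 (fixed block), -0.24 (random block), -0.28, -0.069 and -0.019 (without vehicle 1, vehicle 2 and RAPPD 2). S100a14 was at 0.052, S100a1 at -0.032, Tnni2 at 0.18, Lep at 0.0038 and S100z at 0.28 with the fixed block. S100a6 was at 0.040 without vehicle 2, S100a1 at -0.087 and -0.0085 without RAPPD 1 and RAPPD 2, and Lep at 0.045 with no background correction and 0.039 without RAPPD 4. Leaving out single arrays spanned -0.28 to 0.57 for S100a4, -0.45 to 0.040 for S100a6, -0.087 to 0.22 for S100a1 and -0.079 to 0.039 for Lep. Of 577 values of 31 list genes, 496 stayed on their side of the threshold. No paired analysis was possible because the labels give no replicate numbers. S100a14 was limited by its signal over background.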

Other observations

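The probes of S100a8 and S100a9 were compared with each other after their values were seen, so the values are a description. The log2 ratio of S100a9 to S100a8 within an array was -3.13, -3.19 and -2.19 on vehicle 1 to 3 and -1.93, -1.57, -1.68 and -1.58 on RAPPD 1 to 4. It was higher in all 4 RAPPD tumours than in any vehicle tumour, and the group means differed by 1.15. The difference was 0.50 against vehicle 3 on the shared chip and 0.40 in the submitters' processed values, so its size depends on the processing and on the vehicle arrays used.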
